A study of Mus musculus with 10 samples.

Results

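Gfi1 and Gfi1b encode a pair of zinc finger transcriptional repressors, and Kdm1a, Rcor1, Rcor3, Hdac1 and Hdac2 encode subunits of the corepressor complex through which they act. These 7 genes were taken by symbol from a table of read counts for 21868 genes, and all 7 were present in it. The cells were mouse Flk1+ cells sorted from embryoid bodies, which are aggregates of differentiating embryonic stem (ES) cells. Flk1 is a receptor carried by the early progenitors of blood and endothelium. The ES cells were Ldb1+/+ (WT) or Ldb1-/- (KO), with no other allele given, and were grown in suspension without leukemia inhibitory factor. No source used here says on which embryoid body day the RNA was taken or how many ES cell clones stand behind a genotype. Each genotype has only its own cells, so the loss of Ldb1 and any further difference between the lines cannot be told apart.

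GFI1 and GFI1B bind DNA through zinc fingers and recruit their partners through a short amino-terminal SNAG domain that docks on the histone demethylase LSD1, the product of Kdm1a. LSD1 takes methyl groups off lysine 4 of histone H3. RCOR1 and RCOR3 are CoREST scaffold proteins that bind LSD1, and HDAC1 and HDAC2 in the same complex remove acetyl groups. In the embryo the GFI1 proteins are known for shutting down the endothelial programme as blood cells emerge from hemogenic endothelium.

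The 250 bases before the RefSeq start (assembly GRCm38.p6) are shown for Gfi1b and for the upstream start of Gfi1, whose reads were fewer in KO, and for Kdm1a, whose reads were not. All 3 lie on the minus strand and are written 5′ to 3′ in the direction of the gene. Capitals mark matches to GATAA, the core bound by GATA factors, and to AAATC, the core bound by GFI1 proteins, on either strand. They also mark a CTG that stands 9 bases before a GATA.
Gfi1b, chr2:28621983-28622232: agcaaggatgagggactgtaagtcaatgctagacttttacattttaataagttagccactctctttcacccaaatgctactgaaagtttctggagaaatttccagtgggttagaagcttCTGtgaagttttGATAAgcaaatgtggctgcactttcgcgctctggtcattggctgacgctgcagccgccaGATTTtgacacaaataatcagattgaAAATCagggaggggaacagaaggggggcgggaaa
Gfi1, chr5:107725806-107726055: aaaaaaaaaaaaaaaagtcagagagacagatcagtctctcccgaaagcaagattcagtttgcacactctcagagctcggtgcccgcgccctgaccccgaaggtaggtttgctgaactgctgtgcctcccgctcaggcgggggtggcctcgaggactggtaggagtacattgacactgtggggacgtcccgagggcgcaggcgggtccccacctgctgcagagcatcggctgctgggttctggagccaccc
Kdm1a, chr4:136602724-136602973: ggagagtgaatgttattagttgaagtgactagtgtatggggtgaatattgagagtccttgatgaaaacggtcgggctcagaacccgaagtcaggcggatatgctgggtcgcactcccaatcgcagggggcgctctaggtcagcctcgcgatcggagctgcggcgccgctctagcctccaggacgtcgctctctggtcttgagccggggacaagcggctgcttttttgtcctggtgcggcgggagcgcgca

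The Gfi1b window held 1 GATAA, 119 to 115 bases before the start, where 22.6% of all 32851 promoter windows of this length held at least 1. The same GATA followed a CTG after 9 bases of any kind, a pairing of a partial E-box with GATA of the sort bound by complexes of TAL1, GATA factors and LDB1. That pattern was in 2.16% of windows. Neither pattern was found in the windows of Gfi1, Kdm1a, Rcor1, Rcor3 or Hdac2, and CTG and GATA with a gap of 8 bases (1.91% of windows) were found in none of these windows. Both strands were searched, and the GATAA overlaps the CTG and GATA pairing. AAATC was found 2 times in the Gfi1b window (32.7% of windows held it) and in none of the others. The E-box CANNTG (66.2% of windows) was found 2 times in the Gfi1b window and once before each of the 2 Gfi1 starts, and in none of the others. The Runx motif TGTGGT (14.0% of windows) was found in the Hdac2 window alone, and the ETS-like GGAAG (64.1% of windows) 4 times for Rcor1 and once before the downstream Gfi1 start. A match describes these letters and not a bound site.

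The 4 partner genes with a promoter entry (Kdm1a, Rcor1, Rcor3 and Hdac2, not Hdac1) had CpG-rich windows. The ratio of observed to expected CpG was 0.99 for Kdm1a, 0.93 for Hdac2, 0.91 for Rcor3 and 0.84 for Rcor1, against 0.42 for Gfi1b and 0.59 and 0.44 for the upstream and downstream Gfi1 starts. The median over all windows was 0.37, so the Gfi1b window lay near the middle of all promoters and those 4 lay above at least 83.8% of them. GC content did not separate the genes in the same way, at 44.4% for Gfi1b, 59.2% and 57.6% for the Gfi1 starts, 59.2% for Kdm1a and up to 82.8% (Rcor3) for the other 3.

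**Figure D1:**
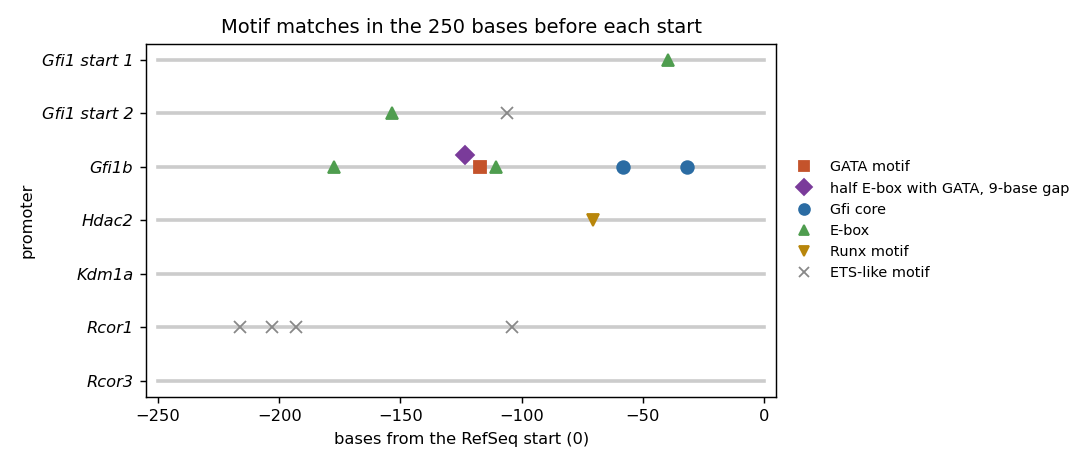
Positions of motif matches (symbols) along the 250 bases before each RefSeq start (horizontal axis, bases; 1 line per promoter). Gfi1b is the one line with a GATA motif, the partial E-box with GATA and the Gfi core.

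RNA-seq gave 8 libraries, 4 per genotype, with 11258493 to 13483294 counts each. Within a genotype, libraries 1 and 2 were near-duplicates, and so were libraries 3 and 4 (mean chi-square per gene of 1.06 to 1.10, where 1 is sampling noise). Each such pair was therefore summed to 1 sample, A and B, giving n = 2 per genotype. Nothing in the labels makes A and B separate cultures, so the p-values here measure a spread that may be technical. Levels are counts per 1000000 (CPM) after TMM scaling. Ldb1 itself stood at 104.8 and 113 CPM in the WT samples against 96.1 and 80.1 CPM in the KO samples (edgeR adjusted p = 0.410), and reads outside a deleted part check nothing about the label. Markers of Flk1+ mesoderm were present in each sample. Their summed level over 7 genes was 1036 and 967 CPM in the WT samples against 564 and 223 CPM in the KO samples. Kdr, which encodes Flk1, stood at 440 and 605 CPM in the WT samples against 236 and 78.6 CPM in the KO samples. Its log2 fold change was -1.73 (SE 0.59, edgeR adjusted p = 0.289). Of these 7 markers, 6 had both KO samples below both WT samples, where 22.4% of all genes tested did. EdgeR called 0 of them, and DESeq2 called 3 lower and 0 higher (3.53% and 3.37% of all genes tested).

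Of the 7 genes, the repressor gene Gfi1b fell in KO and was the one that passed the test. The tested partner genes Kdm1a, Rcor1, Rcor3, Hdac1 and Hdac2 lay between -0.05 and 0.45 on the log2 scale and did not pass. Gfi1 was too low for the filter on low counts, so 6 of the 7 were tested. Gfi1b came past that filter through its WT samples, with 7 and 8 reads in KO samples A and B. Genes were tested with edgeR (quasi-likelihood) and Benjamini-Hochberg adjustment over 16785 genes at 0.05. It called 31 genes, 0.185% of those tested, 21 lower (0.125%) and 10 higher (0.0596%), and 18 lower and 3 higher with each chromosome's median difference removed. Among the 6 genes tested it called 1 lower and 0 higher.

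Gfi1b (ENSMUSG00000026815, chromosome 2) promotes the erythroid and megakaryocytic lineages. It had 74, 85, 110 and 113 reads in WT libraries 1 to 4 and 2, 5, 5 and 3 reads in KO libraries 1 to 4. Every WT library was far above every KO library. In samples A and B this was 6.79 and 8.42 CPM in WT (7.60 ± 1.15, SD, n = 2) and 0.302 and 0.312 CPM in KO (0.307 ± 0.00692). The log2 fold change was -4.61 (SE 0.35, edgeR adjusted p = 0.0476). Summed over samples, 382 reads in WT and 15 in KO gave a depth-scaled ratio of 25.5, with an exact 95% interval of 15.3 to 46.0 that covers counting error only.

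The size of the Gfi1b difference held between -4.83 and -4.39 under every alternative run, but its adjusted p lay close to the threshold. The call was lost without KO sample A (edgeR adjusted p = 0.314) or KO sample B (0.716), where 0 genes of the whole table passed, and with limma-voom (0.0547) or a stricter filter at 1 CPM (0.052), whereas DESeq2 gave 1.54e-13. By limma-voom 0.0179% of genes passed, every one of them lower, and by DESeq2 3.53% were called lower and 3.37% higher. A predicted gene overlaps the Gfi1b gene model in RefSeq and has no row in the count table.

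Gfi1 (ENSMUSG00000029275, chromosome 5), which in adults acts in lymphoid and myeloid cells and in stem cells, was near the limit of detection. WT libraries 1 to 4 had 6, 3, 17 and 14 reads, and KO libraries 1 to 4 had 2, 0, 0 and 3 reads. The lowest WT library and the highest KO library both had 3 reads, and WT sample B was higher than WT sample A. In samples this was 0.384 and 1.17 CPM in the WT samples against 0.0864 and 0.117 CPM in the KO samples. The 40 WT and 5 KO reads gave a depth-scaled ratio of 8.01 (exact 95% counting interval 3.16 to 26.0). Fitted without the filter on low counts, Gfi1 stood at -2.87 on the log2 scale (SE 0.81) and did not pass (edgeR adjusted p = 0.162). In that fit 0.691% of 21868 genes passed (0.361% lower and 0.329% higher), Gfi1b among them (adjusted p = 0.00938). Without WT sample A, Gfi1 came past the filter through WT sample B and stood at -3.46 (edgeR adjusted p = 0.0082). That fit called 1537 genes and leaves 1 WT sample, which is assumed to vary like the KO samples.

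Both repressor genes were higher in WT sample B than in WT sample A. Gfi1 was 3.05 times as high in WT sample B as in WT sample A by depth-scaled reads (exact 95% counting interval 1.42 to 7.27), and Gfi1b 1.24 times (1.01 to 1.53). The WT samples differed in other ways too. The summed level of 6 primitive streak genes was 16.6 CPM in WT sample A and 179 CPM in WT sample B, beside 50.5 and 17.95 CPM in the KO samples. That of 6 pluripotency genes was 1250.5 and 408 CPM in WT, beside 639 and 729.9 CPM in KO. The part of these differences in the Gfi1 values was not tested.

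Blood cell genes moved with Gfi1b. The summed level of 7 blood markers was 152 and 172 CPM in the WT samples and 8.42 and 5.93 CPM in the KO samples. Of the 6 tested, 3 fell by edgeR and 0 rose, where 0.125% and 0.0596% of all genes tested did. They were Plek (a platelet and leukocyte protein gene), the integrin gene Itga2b and the embryonic globin gene Hba-x (edgeR adjusted p = 0.00539, 0.0102 and 0.0378). All 3 lie on chromosome 11, whose median was -0.47, and stood at -6.13, -4.17 and -6.69 on the log2 scale. All 6 tested had both KO samples below both WT samples, where 22.4% of all genes tested did. The Hba-x call was lost with limma-voom (adjusted p = 0.0547). Hba-x had 1 and 2 reads in KO samples A and B. The globin gene Hbb-bh1 had 0 and 0, and the myeloid factor gene Spi1 had 14 and 6. These genes came past the filter on low counts through the WT samples. Genes this low in KO are tested only if they are higher in WT. The leukocyte marker Ptprc was near 0 in both genotypes (0.199 and 0.247 CPM on average). In bulk RNA fewer cells of a type and less RNA per cell cannot be told apart, and the part of cell composition in the Gfi1b and Gfi1 values was not tested. Endothelial markers, which the GFI1 proteins are known to silence, were summed over 8 genes. Pecam1 and Cdh5 among them were also counted as Flk1+ mesoderm markers above, so the lists are not separate evidence. The sum was 742 and 388 CPM in the WT samples against 488 and 203 CPM in the KO samples. Much of that difference was Pecam1 (317 and 130.6 CPM in WT, 69.9 and 39.8 CPM in KO). Pecam1 lies on chromosome 11 too. Of the 8, 3 had both KO samples below both WT samples and 1, Emcn, had both above. These separations were found in 22.4% and 23.2% of all genes tested. Cdh5, Cldn5 and Tek stood at 0.05 (SE 0.61), -0.08 (SE 0.52) and -0.22 (SE 0.46) on the log2 scale. None of the 8 passed edgeR. Before adjustment edgeR gave p under 0.05 for 1 lower and 0 higher, where 7.86% and 7.61% of all genes tested had it. DESeq2 called 0, where it called 3.53% of all genes lower and 3.37% higher. Markers of cardiac and smooth muscle summed to 508 and 645 CPM over 5 genes in the WT samples, beside 898 and 1837 CPM in KO. Nearly all of that sum was the smooth muscle genes Acta2 (346 and 384 CPM in WT, 514 and 1025 CPM in KO) and Tagln (156 and 209.8 CPM in WT, 377 and 807 CPM in KO). The cardiac gene Myl7, also on chromosome 11, was at 4.31 and 49.9 CPM in the WT samples, beside 4.49 and 1.44 CPM in KO. Tnnt2 and Nkx2-5 were below 3 CPM. None of the 5 passed edgeR. Before adjustment 0 lower and 2 higher had p under 0.05 in edgeR (7.86% and 7.61% of all genes tested). DESeq2 called 0 lower and 2 higher (3.53% and 3.37% of all genes). Markers of endoderm summed to 28.6 and 32.5 CPM over 4 genes in the WT samples, beside 17.97 and 6.09 CPM in KO. Most of that sum was Sox17, also an endothelial marker here (22.7 and 20.9 CPM in WT, 12.3 and 3.98 CPM in KO). Foxa2 overlapped between genotypes (1.96 and 10.5 CPM in WT, 4.75 and 1.52 CPM in KO). Of the 3 tested, edgeR and DESeq2 called 0, where they called 0.185% and 6.9% of all genes tested.

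**Figure D2:**
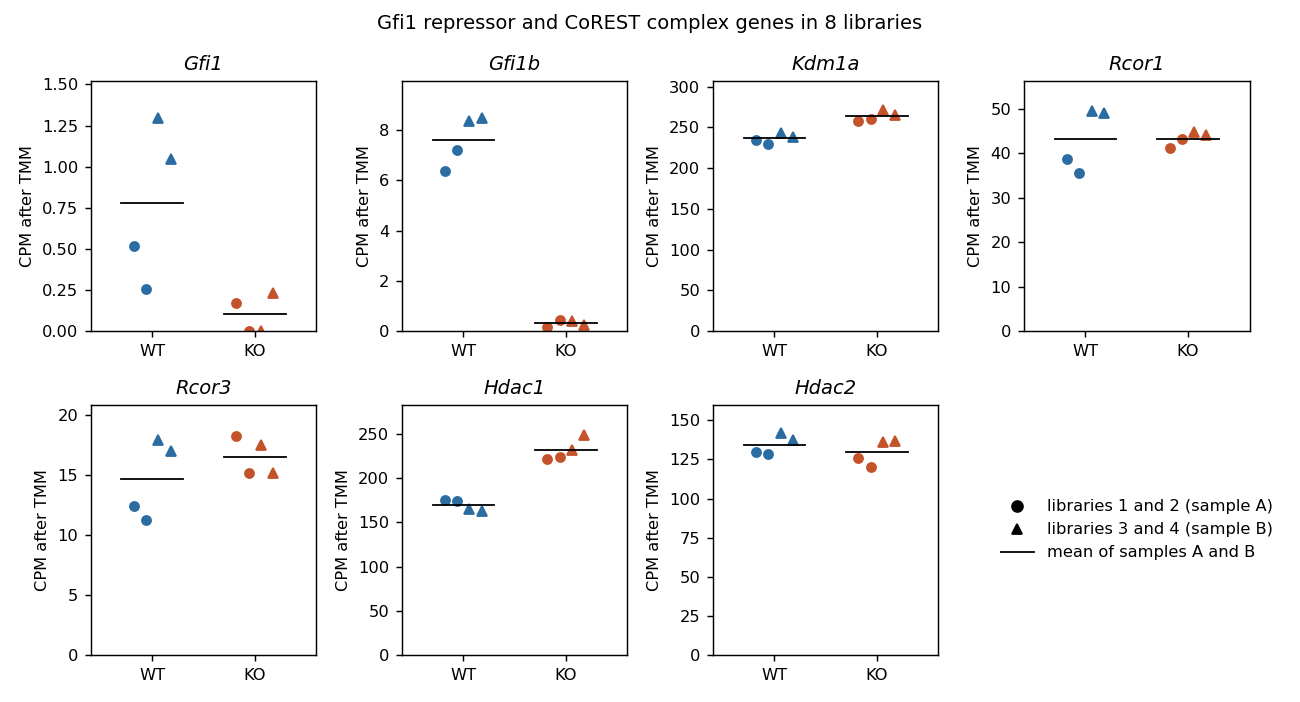
CPM after TMM scaling (vertical axes, each from 0) of the 7 genes in 4 WT and 4 KO libraries. Circles are libraries 1 and 2, triangles are libraries 3 and 4, and lines are the means of the 2 summed samples. Gfi1b averaged 7.60 CPM (WT) and 0.307 CPM (KO). The 4 KO libraries of Hdac1 lie above its 4 WT libraries, and the Rcor1, Rcor3 and Hdac2 libraries overlap.

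Among the corepressor genes, Kdm1a (ENSMUSG00000036940, chromosome 4), the demethylase that the SNAG domain binds, did not pass the test. Its samples stood at 232.5 and 241 CPM in the WT samples against 259 and 269 CPM in the KO samples. The KO samples lay just above the WT samples without overlap. The log2 fold change was 0.16 (SE 0.12, 95% interval -0.14 to 0.45, edgeR adjusted p = 0.625), so a change beyond 0.907 to 1.37 times the WT level lay outside the interval. The Kdm1a gene model overlaps that of Luzp1 in RefSeq, and no source used here gives the strand setting of the counting. Luzp1 stood at -0.03 (SE 0.14).

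The CoREST scaffold genes showed no shift that exceeded the spread between samples. Rcor1 (ENSMUSG00000037896, chromosome 12) stood at 37.1 and 49.2 CPM in the WT samples against 42.2 and 44.4 CPM in the KO samples, with both KO samples inside the WT range. Its log2 fold change was 0.0042 (SE 0.18, 95% interval -0.44 to 0.45), and its sign changed with the scaling. Rcor3 (ENSMUSG00000037395, chromosome 1) stood at 11.8 and 17.4 CPM in the WT samples against 16.7 and 16.4 CPM in the KO samples, again inside the WT range (0.18, SE 0.24, 95% interval -0.41 to 0.76). In both genes WT sample A was the lowest of the 4 samples. Without it the log2 fold change was -0.19 for Rcor1 and -0.084 for Rcor3.

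The deacetylase genes had different values, and neither passed edgeR. Hdac1 (ENSMUSG00000028800, chromosome 4) stood at 175 and 164 CPM in the WT samples against 223 and 240.2 CPM in the KO samples. All 4 KO libraries lay above all 4 WT libraries, a separation in one direction or the other that 28.9% of genes tested had. The log2 fold change was 0.45 (SE 0.13, 95% interval 0.14 to 0.76), or 1.37-fold, and edgeR did not call it (adjusted p = 0.182). DESeq2 did (adjusted p = 0.0388), in a fit where 6.9% of genes passed, and so did edgeR on 8 separate libraries (0.000691), where 24.8% of genes passed. Hdac2 (ENSMUSG00000019777, chromosome 10) stood at 129 and 139 CPM in the WT samples against 123 and 136.5 CPM in the KO samples, which overlap (-0.05, SE 0.13, 95% interval -0.38 to 0.28, adjusted p = 0.923).

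The Hdac1 counts were nearly duplicated in another gene. Gm10093, which RefSeq lists as a synonym of the chromosome 17 pseudogene Hdac1-ps, had 95.5% to 96.7% of the Hdac1 count in each of the 8 libraries. Its log2 fold change was 0.46 (SE 0.13). No source used here says how reads that fit both copies were counted, so the level of Hdac1 is uncertain and its own part in the change cannot be told apart from that of the copy.

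Of the 6 genes tested, Gfi1b (lower) and Hdac1 and Kdm1a (higher) had WT and KO samples that did not overlap, where 45.6% of all genes tested did not. Chromosome medians were taken over genes with a mean log2 CPM above 3. Those of the chromosomes that carry the 7 genes were 0.0092 to 0.0286 on the log2 scale, whereas chromosome 11 stood at -0.47 and chromosome 8 at 0.25.

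Levels of different genes were compared per kilobase of the transcript length in the deposited table. In WT the order from high to low was Hdac1 (86.5 ± 3.84 CPM per kilobase, SD, n = 2), Kdm1a (78.2 ± 1.93), Hdac2 (41.3 ± 2.29), Rcor1 (15.9 ± 3.14), Gfi1b (4.39 ± 0.666), Rcor3 (4.10 ± 1.11) and Gfi1 (0.272 ± 0.194). The samples of Gfi1b and Rcor3 overlapped and those of the other neighbours did not. In KO the order of the top 4 was the same, followed by Rcor3 (4.64 ± 0.0728), Gfi1b (0.178 ± 0.004) and Gfi1 (0.0356 ± 0.00759). Kdm1a thus exceeded Gfi1b by 19.6 and 16.4 times per length in the WT samples and by 489.8 and 492 times in the KO samples. Gfi1b exceeded Gfi1 by 29.2 and 11.9 times in WT and by 5.78 and 4.40 times in KO, where both were at 8 reads or fewer per sample.

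Ratios within a sample do not depend on scaling, and the CoREST genes had like shares in all 4 samples. Rcor2, the third CoREST gene, made up 60.8% and 60.9% of the summed per-length level of Rcor1, Rcor2 and Rcor3 in WT and 62.0% and 59.9% in KO. Rcor1 made up 29.2% to 31.5% and Rcor3 7.67% to 8.83% over the 4 samples. Hdac1 made up 69.2% and 66.1% of Hdac1 and Hdac2 together in WT and 75.0% and 74.5% in KO, with the reservation on Hdac1 reads above. An exact permutation test of 2 against 2 samples cannot go below p = 0.333, so these ratios were not tested.

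**Figure D3:**
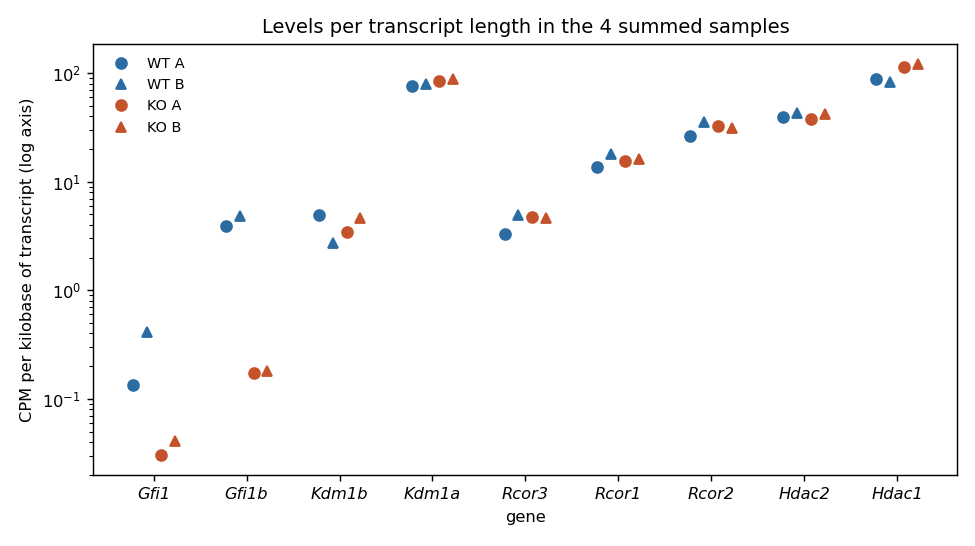
CPM per kilobase of transcript (vertical axis, log scale) in the 4 summed samples, with WT in blue and KO in orange, for the 7 genes and their relatives Kdm1b and Rcor2. Gfi1b and Gfi1 are lower in both KO samples than in both WT samples, and Hdac1 and Kdm1a are higher.

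Other genes of the LSD1 and CoREST machinery were read as a list of 11 further subunits and relatives. None passed edgeR, where 0 lower and 1 higher had p under 0.05 before adjustment (7.86% and 7.61% of all genes tested did) and DESeq2 called 0. Both KO samples lay above both WT samples in 5 of the 11, where 23.2% of all genes did, and 9 of the 11 had a log2 fold change above 0. All 11 lay within 0.5 on the log2 scale, which 75.9% of all genes tested did, and their median was 0.13 against -0.01 over all genes tested. Hmg20b, a subunit that binds DNA through a high-mobility-group domain, had the smallest p (0.41, SE 0.16, edgeR adjusted p = 0.308). The most abundant members were the zinc finger subunit gene Zmym2 (-0.02, SE 0.13) and the partner gene Zfp217 (-0.01, SE 0.14). Rcor2 stood at 0.05 (SE 0.18) and the second LSD1-type demethylase gene Kdm1b at 0.08 (SE 0.34).

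Subunits of other deacetylase complexes (NuRD, SIN3 and NCoR) were compared in the same way. Of 19 genes, none passed edgeR, where 1 lower and 2 higher had p under 0.05 before adjustment (7.86% and 7.61% of all genes) and DESeq2 called 1 lower and 1 higher (3.53% and 3.37% of all genes). These counts lie near the share over all genes. The methyl-CpG binding genes Mbd2 and Mbd3 stood at 0.89 (SE 0.18, edgeR adjusted p = 0.115) and 0.35 (SE 0.12). The corepressor gene Ncor1 stood at -0.54 (SE 0.13), and it lies on chromosome 11, whose median was -0.47. The abundant remodeller gene Chd4 and histone-binding gene Rbbp7 stood at 0.20 (SE 0.14) and 0.28 (SE 0.24).

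Complexes that place the methyl marks LSD1 removes were compared as well. None of 10 genes for histone H3 lysine 4 methyltransferases and their core subunits passed edgeR, where 0.185% of all genes tested did. Before adjustment 0 had p under 0.05 in edgeR (15.5% of all genes tested), and DESeq2 called 0 (6.9%). Their log2 fold changes ran from -0.12 to 0.19. The most abundant, the core subunit genes Ash2l and Wdr5, stood at -0.07 (SE 0.26) and 0.02 (SE 0.14).

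**Figure D4:**
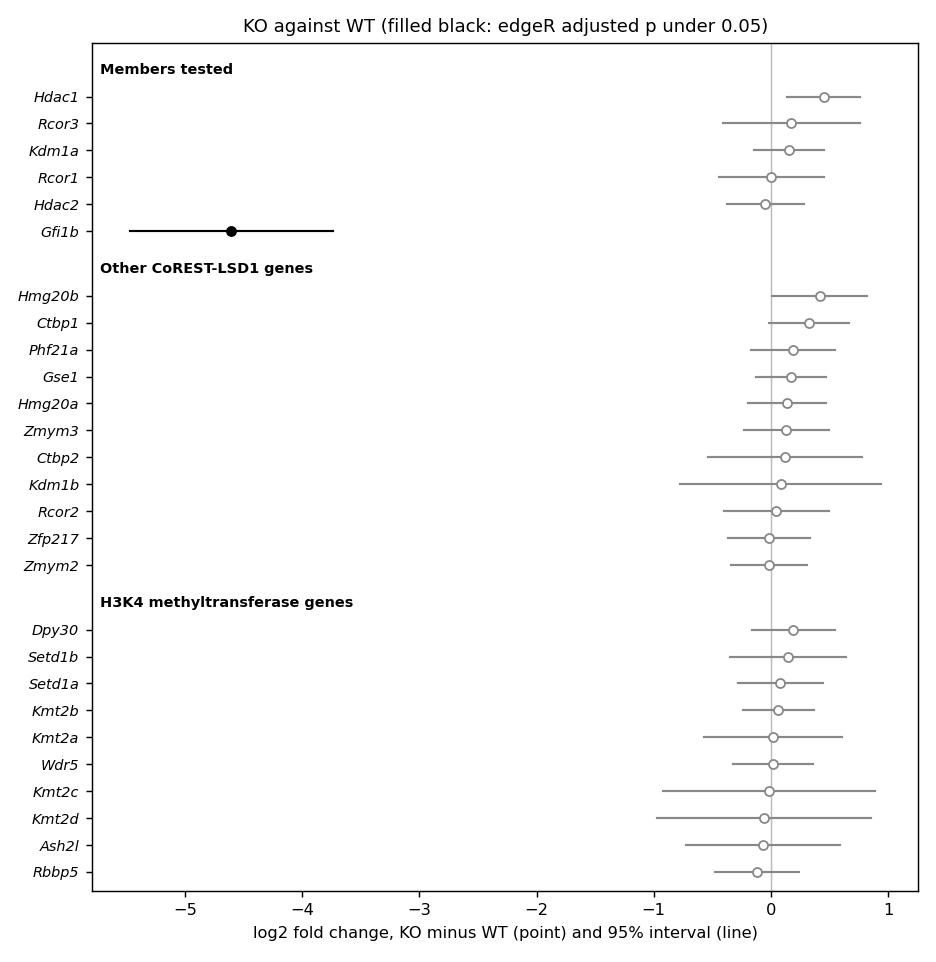
Log2 fold change of KO minus WT (points) with 95% intervals (lines) for the 6 genes tested, 11 other LSD1 and CoREST genes and 10 methyltransferase complex genes. Gfi1b, at -4.61, is the one gene past edgeR's test (filled), and the other points lie between -0.12 and 0.45.

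Other factors that use the SNAG domain or recruit LSD1 formed a list of 13 genes. None passed edgeR. Before adjustment 2 lower and 1 higher had p under 0.05 in edgeR (7.86% and 7.61% of all genes). DESeq2 called 1 lower and 0 higher (3.53% and 3.37%). Of the 13, 5 lay within 0.5 on the log2 scale (38.5%, against 75.9% of all genes tested), and the median was 0.06. Insm1, a SNAG factor of neuroendocrine cells, stood at 2.28 ± 0.0852 CPM in WT against 0.766 ± 0.200 CPM in KO (-1.57, SE 0.37, edgeR adjusted p = 0.139). The repressor gene Zeb2 stood at -0.93 (SE 0.24) and the Snail family gene Snai3, on chromosome 8, at 1.09 (SE 0.32). The most abundant member, Rest, which silences neuronal genes, stood at 0.06 (SE 0.24).

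Factors known to regulate Gfi1 or Gfi1b stood lower in KO for the most part. Of 13 genes tested, Nfe2 fell and 0 rose by edgeR, where 0.125% and 0.0596% of all genes did. Before adjustment 11 lower and 1 higher had p under 0.05 in edgeR, where 7.86% and 7.61% of all genes did. DESeq2 called 10 lower and 1 higher (3.53% and 3.37% of all genes). Their median log2 fold change was -1.40 against -0.01 over all genes tested, and 11 of the 13 were lower in both KO samples than in both WT samples, where 22.4% of all genes were. The list was chosen with earlier results of these data known, and several of its genes are blood markers themselves. Nfe2 and Spi1, both among the lower genes, came past the filter on low counts through their WT samples.

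The erythroid and megakaryocytic factor gene Nfe2 stood at 6.87 and 8.38 CPM in the WT samples against 0.432 and 0.312 CPM in the KO samples. Nfe2 levels were close to those of Gfi1b in each sample (Nfe2 log2 fold change -4.34, SE 0.36, edgeR adjusted p = 0.0476). Its KO samples held 10 and 8 reads, and the WT samples carried it past the filter on low counts. As for every gene of the table, its call was lost without KO sample A (0.314) or KO sample B (0.716). The myeloid factor gene Spi1 had samples at 8.15 and 7.47 CPM in the WT samples against 0.605 and 0.234 CPM in the KO samples (-4.22, SE 0.48, adjusted p = 0.0640). Its KO samples held 14 and 6 reads, so Spi1 too was tested because of its WT samples. Gata1 stood at 9.13 and 10.8 CPM in the WT samples against 2.94 and 1.95 CPM in the KO samples (-2.02, SE 0.31), and Gata2 at 23.2 and 19.2 CPM in the WT samples against 8.99 and 7.22 CPM in the KO samples (-1.39, SE 0.21). Both encode factors that bind GATA motifs, and edgeR called neither (adjusted p = 0.100 each). The most abundant members were the E protein gene Tcf3, at 0.03 (SE 0.12), and Cbfb, the partner of Runx factors, at 0.58 (SE 0.12). Cbfb lies on chromosome 8, whose median was 0.25.

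Genes described as targets of GFI1 or GFI1B repression gave mixed values. Of 22 listed, 20 were tested, and 1 rose and 0 fell by edgeR, where 0.0596% and 0.125% of all genes did. Before adjustment 2 lower and 3 higher had p under 0.05 (7.86% and 7.61% of all genes), and DESeq2 called 2 lower and 3 higher (3.53% and 3.37%). The median was 0.06, and 13 of the 20 lay within 0.5 on the log2 scale (65.0%, against 75.9% of all genes tested). Rgs18 and Hoxa9 were too low to test.

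The gene that rose was Csf1, the macrophage growth factor. It stood at 27.1 and 34.6 CPM in the WT samples against 105 and 132 CPM in the KO samples, with each KO sample above each WT sample (log2 fold change 1.94, SE 0.19, edgeR adjusted p = 0.0493). That call too was lost without KO sample A (0.314), KO sample B (0.716) or KO library 1 (0.0505), and with limma-voom (0.0573). The cell cycle inhibitor gene Cdkn1b stood at 49.5 ± 5.78 CPM in WT against 79.4 ± 16.2 CPM in KO (0.68, SE 0.19, adjusted p = 0.182).

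In the other direction, the homeobox gene Meis1 stood at 13.8 ± 4.68 CPM in WT against 3.68 ± 0.983 CPM in KO (-1.90, SE 0.35, edgeR adjusted p = 0.110). It lies on chromosome 11. Spi1, given above, belongs to this list too. The most abundant targets tested, Cdkn1a and Bcl2l1, which act in cell cycle arrest and in survival, stood at 0.38 (SE 0.30) and 0.42 (SE 0.24).

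**Figure D5:**
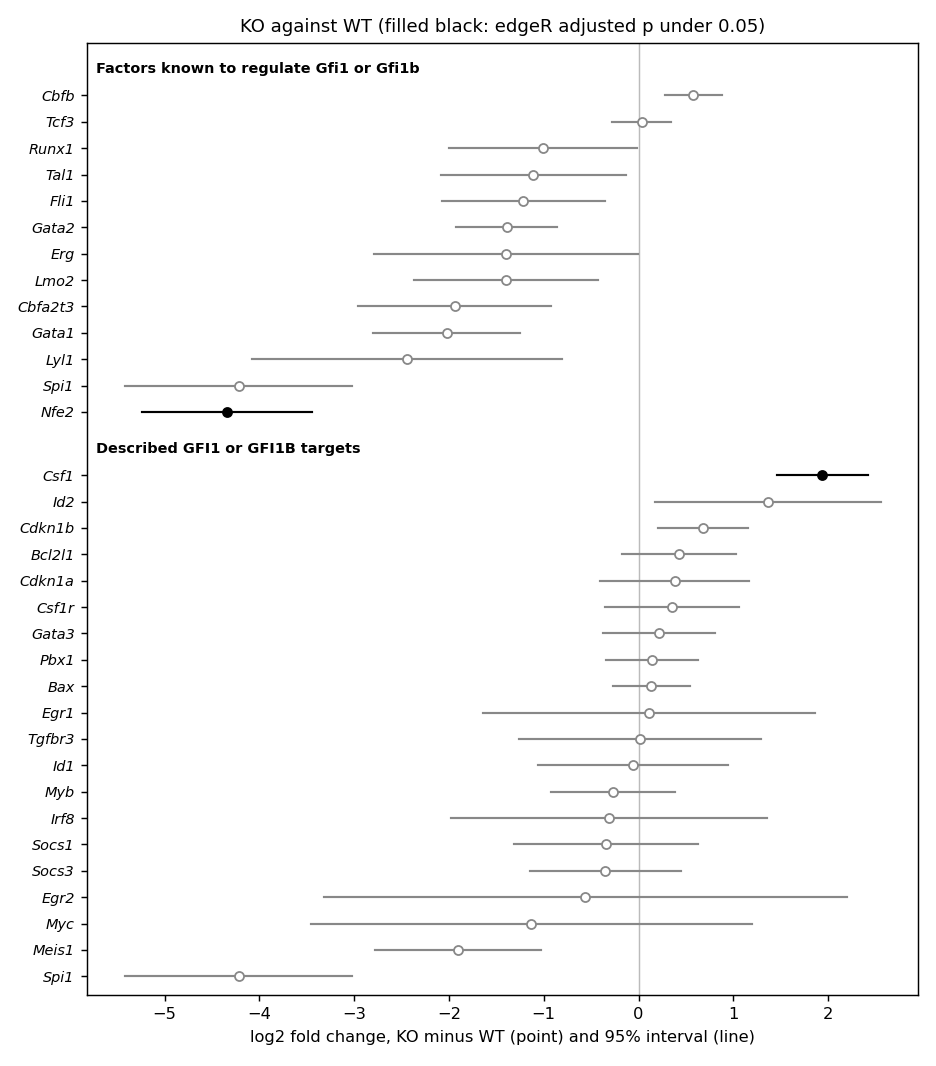
Log2 fold change of KO minus WT (points) with 95% intervals (lines) for 13 factors known to regulate Gfi1 or Gfi1b and for 20 described targets tested. Most regulators lie left of 0 with a median of -1.40, whereas the targets scatter around a median of 0.06; Nfe2 and Csf1 passed edgeR's test (filled).

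Genes with the most similar profile were found by the Euclidean distance between centred log2 CPM profiles over the 4 samples, among 11318 genes with a mean of at least 5 CPM. Genes with a like difference between genotypes lie near each other on this measure by construction. The floor of 5 CPM left out other genes as low as Gfi1b, among them Nfe2 (7.62 CPM in WT and 0.372 CPM in KO on average). For Gfi1b the nearest was the imprinted gene Mest (distance 0.18), at 652 and 774 CPM in the WT samples against 38.7 and 33.4 CPM in the KO samples. The blood progenitor integrin gene Itga2b followed (0.36), and then Nxf3 (0.81), H19 (0.96) and Ctse (1.09). Of these 5, Mest, Itga2b and Nxf3 fell by edgeR (adjusted p = 0.00539, 0.0102 and 0.0400), and Nxf3 missed the threshold with limma-voom (0.0547).

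The nearest genes to Gfi1 were Pdlim4 (distance 0.53), Crabp1 (0.55), Zfpm1 (0.60), Slc13a4 (0.72) and Cxcr4 (0.72). A prior count of 2 was added before logs were taken, and Gfi1 had 2 and 3 reads in KO samples A and B. The prior makes the difference between genotypes smaller in its profile. Zfpm1, which encodes the GATA cofactor FOG1, stood at 46.2 and 81.1 CPM in the WT samples against 19.1 and 17.9 CPM in the KO samples. Cxcr4, a chemokine receptor gene, stood at 11.2 and 35.4 CPM in the WT samples against 7.34 and 4.64 CPM in the KO samples. None of these 5 passed edgeR over all genes (adjusted p from 0.110 to 0.258).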

How the data were processed

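RNA-seq of Flk1+ WT and Ldb1 KO cells was deposited by the authors as raw read counts per Ensembl gene, with 1 transcript length per gene, per the file headers. The submitters' processing notes name mm9 and DESeq. No source used here gives the aligner, counter, strand setting or annotation release. The Ldb1 ChIP peak list was not used here, because it names no genes and its build differs from that of the RefSeq tables. Symbols matched 20362 of 21868 genes. RefSeq tables of GRCm38.p6 gave chromosome membership, overlap and promoter sequence. The 7 genes and all gene lists were chosen with earlier results of these data known.

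Near-duplicate libraries were summed to 2 samples per genotype. Low counts were removed by filterByExpr, and TMM scaling preceded the test in edgeR 4.0.16 (quasi-likelihood, robust) in R 4.3.3 over all genes at an adjusted p of 0.05. The SE is the absolute log2 fold change divided by the square root of F, and 95% intervals are not adjusted for multiple testing. The script was tested on simulated data. Levels per length used the deposited transcript lengths in place of the planned coding lengths. Alternatives were DESeq2 1.42.0, limma-voom (limma 3.58.1), other scalings, filters and thresholds, a replicate block, 8 separate libraries, removal of chromosome medians, and leaving out each sample or library. Other tools were scipy 1.17.1, pandas 2.3.3 and matplotlib 3.10.9.

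Named genes were the 7 genes, Ldb1, and from each list those past edgeR, up to 4 with the smallest unadjusted p under 0.05 and the 2 most abundant. The 5 nearest profiles to Gfi1 and Gfi1b were added. Marker lists are given as sums. Rcor2, Kdm1b, Luzp1, Gm10093, Ptprc, Hbb-bh1, Rgs18 and Hoxa9 were named after their values were seen. So were the single markers of Flk1+ mesoderm, endothelium, endoderm, and cardiac and smooth muscle.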

Additional observations from a re-analysis of the deposited data

How the results depend on the processing

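The depth limits Gfi1, with 5 KO reads in all, and 2 samples per genotype limit every test. The number of genes past the test (31) was 1159 with DESeq2, 3 with limma-voom, 151 without a filter on low counts, 5 with 1 CPM in at least 2 samples, 2 at an adjusted p of 0.01, 3860 with 8 libraries fitted separately, and 0 to 1674 when a sample or library was left out (with WT sample A left out 1537, with B left out 1674, and 0 without either KO sample, although before adjustment edgeR gave p under 0.05 for 1704 genes without A and 1106 without B). The number of the 7 genes past the test (1, Gfi1b) was 2 with DESeq2 (Gfi1b and Hdac1), 0 with limma-voom, 0 with 1 CPM in at least 2 samples, 0 at an adjusted p of 0.01, 3 with 8 libraries (Gfi1b, Hdac1 and Kdm1a), and 0 to 2 when a sample or library was left out. Near-duplicate libraries counted as replicates narrow the spread by construction. Gfi1b stood at -4.54 with limma-voom, -4.62 with 1 CPM in at least 2 samples, -4.61 at an adjusted p of 0.01, and -4.83 to -4.39 with a sample or library left out. Csf1 also missed the threshold with upper quartile scaling (adjusted p = 0.0517), with 1 CPM in at least 2 samples (0.0542) and with chromosome medians removed (0.0542), and Nfe2 with limma-voom (0.0547), with 1 CPM in at least 2 samples (0.0535), without KO library 2 (0.0627) and without either KO sample. The cause was not tested.

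The samples share replicate numbers only: across 16785 genes, B minus A in WT and in KO correlated at r = -0.081. With a replicate block 5 genes and 0 of the 7 passed, and Gfi1b stood at -4.60 (adjusted p = 0.0768). Csf1 (0.0732), Nfe2 (0.0802), Nxf3 (0.0732) and Hba-x (0.0732) missed the threshold with the block too. With 8 libraries and a replicate block 3410 genes and 2 of the 7 passed.

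Values near 0 changed sign. Rcor1 (0.0042) was -0.025 with upper quartile scaling, -0.028 with library size scaling, -0.010 with 1 CPM in at least 2 samples, -0.0031 with 8 libraries and -0.010 with chromosome medians removed. Wdr5 was -0.012 with upper quartile and -0.015 with library size scaling. With a sample or library left out, the ranges of genes that changed sign were -0.19 to 0.23 for Rcor1, -0.084 to 0.49 for Rcor3, -0.12 to 0.030 for Hdac2, -0.17 to 0.29 for Rcor2, -0.28 to 0.57 for Kdm1b, -0.15 to 0.096 for Luzp1, -0.38 to 0.34 for Ash2l, -0.068 to 0.72 for Cdkn1a, -0.24 to 0.44 for Rest, -0.034 to 0.10 for Tcf3, -0.092 to 0.13 for Wdr5, -0.12 to 0.087 for Zfp217 and -0.11 to 0.079 for Zmym2. Of 1084 values of 46 named genes other than Gfi1b under the alternatives, 927 kept their direction and side of the threshold, 101 newly passed, 26 no longer passed and 30 changed direction.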
